A study of Mus musculus with 20 samples.

Results

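Levels of 38 Hox genes were read along the gut and in fat of mice. The genes were taken by name, as members of the Hox clusters, and all 38 had a probe among the 21154 genes named on the array. They belong to the 4 mouse clusters, with 10 members in Hoxa, 10 in Hoxb, 9 in Hoxc and 9 in Hoxd.

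Hox genes encode homeodomain transcription factors that give cells of the embryo their position along the head-to-tail axis. Within a cluster, genes of low number lie at the 3′ end and are used from the front of the body, and genes of high number lie at the 5′ end and are used towards the tail, an order known as collinearity. Adult tissues, among them gut wall and fat depots, keep much of the Hox pattern of the body level at which they formed.

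Male C57BL/6J mice began 1 of 4 diets when 5 weeks old and were kept on it for 13 weeks. HFD+PP was a high-fat diet with 60% of energy from fat and 2% by weight of porphyran, the sulfated galactan found in nori seaweed. HFD+Ex held 2% by weight of an extract made from nori in that same food, HFD was the high-fat food alone, and CD was a control diet with 10% of energy from fat. From each diet, colon, ileum, mesenteric white fat, brown fat and liver were taken, and the RNA of 7 mice was pooled for each of the 20 one-colour arrays, so no array shows a single animal. The labels do not say whether epithelium, muscle and nerve of the gut wall were separated.

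A level is the log2 processed signal minus the 75th percentile of its array, so that 0 is a signal at that percentile and a difference of 1 is 2-fold. Values on the 4 arrays of a tissue are listed in the order HFD+PP, HFD+Ex, HFD and CD. Levels are compared between arrays for 1 gene and never between genes, since probes differ in brightness. A gene counted as detected in a tissue when its probe was well above background on all 4 arrays. In bulk tissue, fewer cells of a type and less RNA per cell cannot be told apart.

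Between 50.7% and 67.9% of spots were well above background on an array. The tissue labels were checked against defining markers. All 8 colon epithelium markers were well above background on every colon array, all 9 ileum epithelium markers on every ileum array, all 6 brown fat markers on every brown fat array and all 7 liver markers on every liver array. All 7 general fat cell markers were well above background on every array of both fats. Detection alone did not set these tissues apart. All 8 colon markers were also well above background on the HFD+PP, HFD and CD ileum arrays, and 7 on the HFD+Ex ileum array. All 9 ileum markers were well above background on the CD colon array, and 8 on each of the other colon arrays. The ileum markers summed to 1237 to 1757 in ileum and 14.7 to 38.3 in colon. The colon markers summed to 688 to 794 in colon and 146 to 426 in ileum. General fat cell markers summed to 1053 to 2183 in the fats and 21.6 to 49.0 in the gut segments. The mesenteric fat arrays also carried RNA of other tissues. The summed linear level of 7 exocrine pancreas markers was 1301, 380.2, 12.9 and 788 there, against 0.932 to 1.22 in brown fat. That of 8 lymphocyte markers was 49.99, 47.0, 8.51 and 108, against 2.03 to 2.45 in brown fat. Of 9 gut epithelium markers tested, 8 were called higher in mesenteric fat by the limma fit described below for the Hox genes. The 7 liver markers summed to 9.19, 11.9, 10.4 and 26.8 in colon, highest on the CD array, against 4820 to 5171 in liver.

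By count of Hox genes detected, colon was highest and liver lowest. Of the 38 genes, 29 were detected in colon, 19 in ileum, 26 in mesenteric fat, 19 in brown fat and 10 in liver. Over all 21154 genes, the share detected was 75.2% in colon, 71.1% in ileum, 71.7% in mesenteric fat, 63.6% in brown fat and 66.0% in liver. The Hox counts in colon and mesenteric fat were thus near the share of all genes. Those in ileum, brown fat and liver were below it. Hoxb1, Hoxc11 and Hoxd1 were not well above background on any of the 20 arrays. Hoxc13 was well above background on 1 array, the HFD+Ex colon. In liver the detected genes were Hoxa2, Hoxa3, Hoxa5, Hoxa6, Hoxa7, Hoxa9, Hoxb2, Hoxb4, Hoxb5 and Hoxb6, all of Hoxa or Hoxb, and no Hoxd gene was well above background on any liver array.

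**Figure D1:**
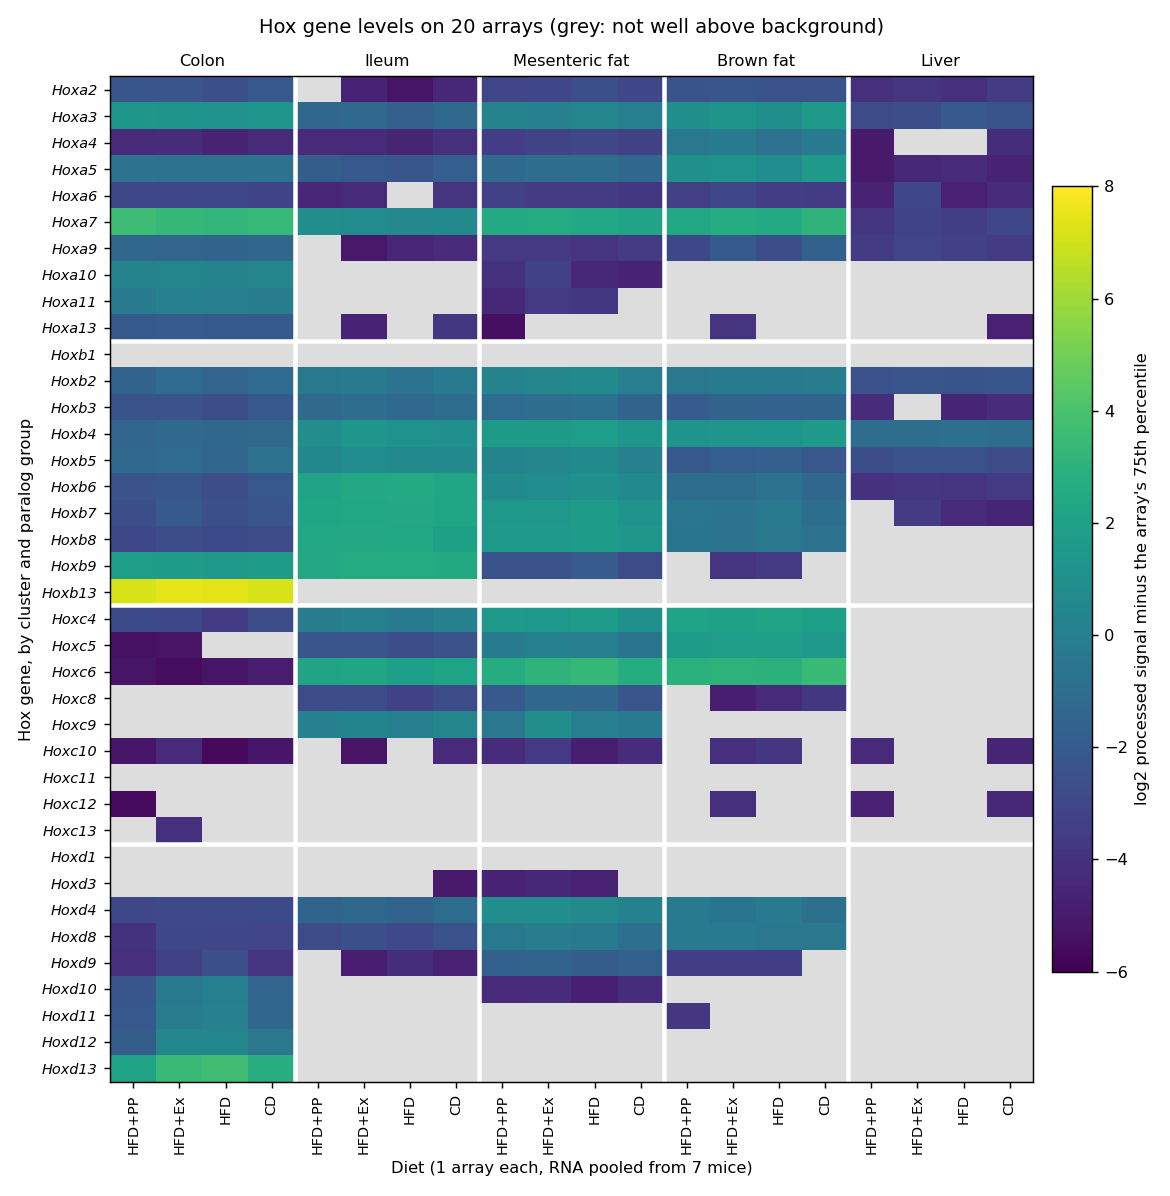
Log2 level of 38 Hox genes (rows, by cluster and paralog group) on 20 arrays (columns, by tissue and diet, 1 pool of 7 mice each). Colour compares arrays within a row, and grey cells were not well above background. In colon 29 genes are coloured on all 4 arrays, in ileum 19, in mesenteric fat 26, in brown fat 19 and in liver 10.

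Which tissue had the highest mean went in part by cluster. Among the 33 genes that 3 or more arrays of some tissue measured well above background, 13 had their highest mean level in colon, 7 in ileum, 7 in mesenteric fat and 6 in brown fat. The colon set held 8 Hoxa genes, Hoxb13 and Hoxd10 to Hoxd13. The ileum set held Hoxb3, Hoxb5 to Hoxb9 and Hoxc9. Brown fat had the highest mean for Hoxa4, Hoxa5, Hoxc4, Hoxc5, Hoxc6 and Hoxd8, and mesenteric fat for Hoxb2, Hoxb4, Hoxc8, Hoxc10, Hoxd3, Hoxd4 and Hoxd9. These are orders of means, and neighbours in the order can lie within each other's spread. Hoxc6, for example, averaged 2.94 ± 0.33 in mesenteric fat and 3.11 ± 0.22 in brown fat (SD, n = 4 each).

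The 2 gut segments differed in most of the Hox genes they used. For this and the other tissue comparisons, the 4 pools of a tissue, 1 from each diet, served as its replicates, and limma was fitted to all 20 arrays with terms for tissue and diet. The labels do not say that pools were processed independently, so p-values measure the spread between these arrays only. A gene was called when its Benjamini-Hochberg adjusted p over all genes fitted was under 0.05, its difference was at least 1 log2 and at least 3 of the 4 arrays in 1 of the tissues were well above background. Of the 38 genes, 32 were tested in colon against ileum. In colon 15 were called higher and 12 lower, against 8.0% higher and 7.32% lower (15.3% in all) among all 16509 genes tested (10 higher and 12 lower under normexp, another background correction). The levels in colon and ileum did not overlap for 30 of the 32, against 52.0% of all genes tested. The members' median difference was 0.11 log2 and that of all genes tested 0.07, and the calls ran both ways.

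The direction went with cluster and, within Hoxb and Hoxd, with paralog group. All 4 tested Hoxa genes of paralog groups 9 to 13 were called higher in colon, as were all 5 Hoxd genes of these groups and Hoxb13. All 4 Hoxb genes of groups 5 to 8 were called lower in colon, as were all 3 tested Hoxc genes of groups 5 to 8. Over the 32 genes, which share the same arrays, Spearman's rho between paralog number and the colon minus ileum difference was 0.53, given as a description. Hoxa and Hoxc went opposite ways within the middle groups, since Hoxa5, Hoxa6 and Hoxa7 were called higher in colon and Hoxc5, Hoxc6 and Hoxc8 lower.

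Hoxb13, a 5′ gene known for its use in hindgut and prostate, had levels of 7.13, 7.46, 7.44 and 7.14 in colon. In ileum its values were −7.0, −7.60, −7.47 and −6.58, none of them well above background. It was at least 6478-fold higher in colon (limma, adjusted p = 7.51e-14). A fold against a tissue in which no array was well above background is written "at least", because it is taken against the lowest signal the arrays could measure. The next tested Hoxb gene on the 3′ side did not share this step, as Hoxb9 had 1.87, 1.69, 1.53 and 1.71 in colon and 2.46, 2.61, 2.60 and 2.48 in ileum, a difference of −0.84 log2 that falls short of the 1 log2 needed for a call although the values did not overlap.

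At the 5′ end of Hoxd, Hoxd13, needed in mice for digits and the anorectal sphincter, had levels of 2.08, 3.49, 3.71 and 2.74 in colon and −7.23, −7.80, −7.73 and −7.80 in ileum. No ileum array was well above background, and Hoxd13 was at least 332-fold higher in colon (limma, adjusted p = 2.71e-11). Hoxd12 had −1.87, 0.42, 0.41 and −0.47 in colon and −7.14, −7.75, −7.63 and −7.70 in ileum, which is at least 31.9-fold higher in colon (limma, adjusted p = 2.84e-09). Hoxd11 was at least 22.4-fold and Hoxd10 at least 20.8-fold higher in colon, with no ileum array well above background for either. Hoxd10 to Hoxd13 spread widely over the colon arrays, with SDs of 0.74 to 1.08 log2. The step was smaller towards the 3′ side. Hoxd9 averaged −3.44 ± 0.69 in colon and −4.97 ± 0.80 in ileum (SD, n = 4 each), Hoxd8 was not called, and Hoxd4 was called lower in colon by 1.60 log2.

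The 250 bases upstream of the RefSeq starts of Hoxd13, Hoxd12, Hoxd11 and Hoxd10 are shown because these neighbouring genes were high in the same tissue and moved together over its arrays. They come from a RefSeq promoter table of build GRCm38.p6, in which 22 of the 38 members had an entry, and all lie on the plus strand of chromosome 2, with 2 starts given for Hoxd11. Letters are in lower case with capitals marking matches on either strand to 3 motifs. They are the TATA motif, searched as TATAAA, the CAAT motif, searched as the letters CCAAT, and the core of sites bound by CDX proteins, searched as TTTATG. In Hoxd13 the TATA motif matched on both strands, overlapping.
Hoxd13, chr2:74667975-74668224: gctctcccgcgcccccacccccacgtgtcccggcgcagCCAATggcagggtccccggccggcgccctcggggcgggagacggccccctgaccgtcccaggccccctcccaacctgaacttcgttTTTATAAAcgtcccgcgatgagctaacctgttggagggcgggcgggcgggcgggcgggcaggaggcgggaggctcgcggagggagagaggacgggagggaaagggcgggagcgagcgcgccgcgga
Hoxd12, chr2:74674763-74675012: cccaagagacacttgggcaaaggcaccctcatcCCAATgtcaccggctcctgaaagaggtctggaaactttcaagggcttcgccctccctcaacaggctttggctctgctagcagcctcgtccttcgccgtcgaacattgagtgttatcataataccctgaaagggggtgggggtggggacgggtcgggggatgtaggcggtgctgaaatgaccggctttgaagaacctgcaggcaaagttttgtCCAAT
Hoxd11, chr2:74679308-74679557: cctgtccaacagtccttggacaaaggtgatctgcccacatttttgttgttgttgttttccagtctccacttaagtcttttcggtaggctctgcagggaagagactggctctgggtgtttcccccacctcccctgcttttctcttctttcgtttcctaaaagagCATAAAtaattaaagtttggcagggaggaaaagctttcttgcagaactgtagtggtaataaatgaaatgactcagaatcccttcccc
Hoxd11, chr2:74682073-74682322: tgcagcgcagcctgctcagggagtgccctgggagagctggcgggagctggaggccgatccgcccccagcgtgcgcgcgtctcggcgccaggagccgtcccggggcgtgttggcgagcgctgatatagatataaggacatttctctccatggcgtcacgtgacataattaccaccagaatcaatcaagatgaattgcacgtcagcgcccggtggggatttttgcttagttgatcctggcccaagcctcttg
Hoxd10, chr2:74691641-74691890: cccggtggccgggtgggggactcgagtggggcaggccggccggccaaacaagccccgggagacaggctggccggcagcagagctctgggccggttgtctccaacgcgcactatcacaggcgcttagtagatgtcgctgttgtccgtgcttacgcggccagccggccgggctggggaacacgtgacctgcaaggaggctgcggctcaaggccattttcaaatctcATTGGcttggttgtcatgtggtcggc
The Hoxd13 window had 74.4% G and C and held the TATA and CAAT motifs. That of Hoxd12 had 55.6% G and C and held the CAAT motif at 2 places, and that of Hoxd10 had 65.6% and held it once, on the opposite strand. The first Hoxd11 window had 44.8% G and C and held the CDX core on the opposite strand, and the second had 60.4% and held none of the 3 motifs. Among 32851 windows of this length, 12.4% held the TATA motif, 33.8% the CAAT motif and 10.8% the CDX core, and among the 24 windows of members the counts were 4, 14 and 5. These are letter matches in a short window and not shown to be bound sites.

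In Hoxa, Hoxa10 and Hoxa11 were likewise well above background on every colon array and no ileum array. Hoxa10, which patterns the reproductive tract and hindlimb in mice, had levels of 0.24, 0.36, 0.28 and 0.34 in colon and −6.11, −7.66, −7.51 and −7.55 in ileum. It was at least 51.1-fold higher in colon (limma, adjusted p = 2.93e-10). Hoxa11, a forelimb and uterus gene, had −0.17, 0.13, −0.03 and −0.04 in colon and −7.01, −7.33, −7.08 and −6.93 in ileum, at least 40.5-fold higher in colon (limma, adjusted p = 8.98e-11). Hoxa13, needed in mice for the genital tubercle and digits, had −2.01, −2.0, −2.04 and −2.01 in colon and −6.03, −4.63, −5.56 and −3.72 in ileum, where the HFD+Ex and CD arrays alone were well above background. Its difference was 2.97 ± 0.48 log2 (SE), with the colon values all above those of ileum (limma, adjusted p = 1.77e-04). Under the normexp background correction its difference shrank to 0.998 and was no longer called. A second Hoxa13 probe, well above background on 4 colon arrays and no ileum array, went the same way.

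The 3′ and middle Hoxa genes differed by less. Hoxa7 had 3.59, 3.31, 3.29 and 3.36 in colon and 0.89, 0.83, 0.59 and 0.64 in ileum, 6.28-fold higher in colon. Hoxa3, needed for the thymus and throat cartilages, had 1.40, 1.25, 1.13 and 1.37 in colon and −1.38, −1.21, −1.73 and −1.20 in ileum, 6.35-fold higher in colon. Hoxa5, needed in mice for lung and gut maturation, had −0.68, −0.72, −0.79 and −0.65 in colon and −1.88, −2.13, −2.25 and −1.84 in ileum, 2.49-fold higher in colon. For all 3 the ranges of the tissues were apart and the limma adjusted p was 2.11e-05 or below. Hoxa2, a gene of the hindbrain and second branchial arch, was 5.69-fold higher in colon, and Hoxa9, known in blood progenitors, 10.0-fold. Hoxa4 did not pass the test, with −4.37 ± 0.18 in colon and −4.34 ± 0.18 in ileum (SD, n = 4 each). Hoxa5 and Hoxa6 were not called under normexp, at 0.995 and 0.31 log2. They and Hoxa13 were among the higher calls lost under it, and the other calls lost are not named here.

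Hoxb and Hoxc genes of the middle groups made up the other side. Hoxb6 had levels of −2.41, −2.24, −2.66 and −2.14 in colon and 2.16, 2.48, 2.54 and 2.22 in ileum, 26.2-fold lower in colon (limma, adjusted p = 5.15e-12). Hoxb7 was 26.6-fold lower in colon, and Hoxb8, known in mice for its use in microglia, 34.3-fold. No value of these 3 genes in colon reached those in ileum. The 3′ neighbours differed by less. Hoxb5, known for its use in enteric neurons, had −1.24, −1.09, −1.37 and −0.73 in colon and 0.55, 0.78, 0.64 and 0.72 in ileum, 3.43-fold lower in colon. Hoxb4, a gene of blood stem cells, had −1.44, −1.24, −1.30 and −1.19 in colon and 0.88, 1.29, 1.16 and 1.0 in ileum, 5.19-fold lower in colon. Hoxb2, a hindbrain gene, had −1.55, −1.09, −1.44 and −1.09 in colon and −0.33, −0.19, −0.69 and −0.24 in ileum, and its difference of −0.93 log2 was short of a call.

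Hoxc6, a gene of the thoracic region, had levels of −5.23, −5.52, −5.21 and −4.92 in colon, well above background but near the lowest signals the arrays could measure, and 2.19, 2.30, 1.88 and 2.13 in ileum. It was 163-fold lower in colon (limma, adjusted p = 8.24e-11). Hoxc9, a thoracic gene widely used as a marker of white against brown fat in mice, had −7.41, −7.73, −6.51 and −7.16 in colon, none well above background, and 0.16, 0.30, 0.05 and 0.35 in ileum. It was at least 71.0-fold lower in colon (limma, adjusted p = 8.73e-11). Hoxc8 was at least 8.31-fold lower in colon, with no colon array well above background. Taking presence alone, the segments held different sets, Hoxc8 and Hoxc9 being detected in ileum and on no colon array, and Hoxa10, Hoxa11, Hoxb13 and Hoxd10 to Hoxd13 in colon and on no ileum array.

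**Figure D2:**
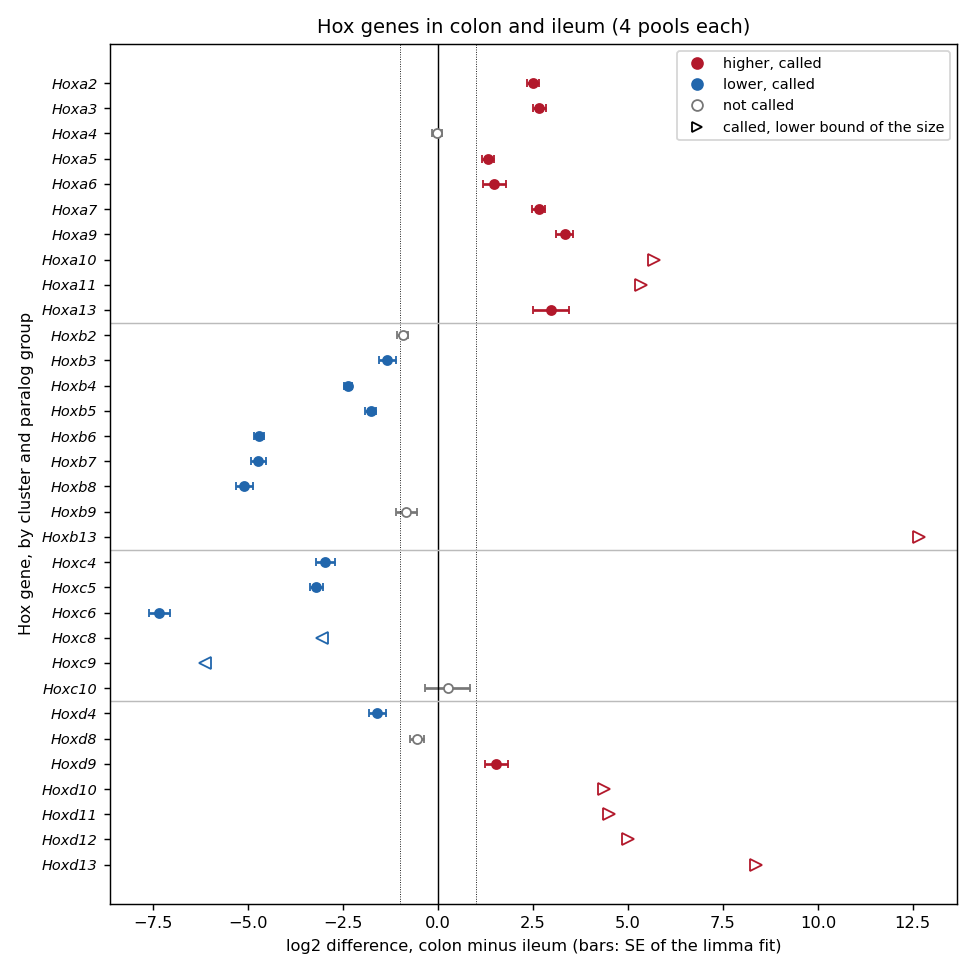
Log2 difference in level, colon minus ileum, for the 32 tested Hox genes by cluster and paralog group (4 pools a tissue, bars are SE of the limma fit, dotted lines at 1 and −1). Filled points were called, and triangles mark called genes with no array well above background in the dimmer tissue, drawn at the lower bound of the size. The 5′ genes of Hoxa, Hoxb and Hoxd lie to the right and the middle genes of Hoxb and Hoxc to the left.

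The colon arrays were on a slide of their own, so colon and slide cannot be told apart. Some markers of cells other than epithelium were called between the segments. Of 8 lymphocyte markers, Cd3g and Cd8a were called lower in colon, and of 7 fat cell markers Pparg was called higher. None of the 8 smooth muscle, 9 mesenchyme and 13 enteric nerve and glia markers was called by limma, with 3, 5 and 4 of them at an unadjusted p under 0.05, and 3, 3 and 2 of them at an adjusted p under 0.05 with a difference under 1 log2. The summed smooth muscle level was 667, 1011, 872 and 862 in colon and 642, 581, 417 and 600.5 in ileum. Of the 10 markers shared by gut epithelium, 2 were called lower in colon. Their part in the Hox differences was not tested.

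Genes around the Hox clusters and regulators of them were compared from lists. Of 12 neighbours with a probe, 4 of the 10 tested were called higher in colon and 1 lower. Ttll6, which lies next to Hoxb13, averaged 1.93 ± 0.09 in colon and −3.48 ± 0.25 in ileum (SD, n = 4 each), 42.5-fold higher in colon (limma, adjusted p = 1.39e-09). Evx1 and the long non-coding RNA gene Hottip, both beyond Hoxa13, averaged −2.75 ± 0.43 and −2.20 ± 0.14 in colon and were well above background on no ileum array. Skap2, at the far side of Hoxa, was 2.20-fold higher in colon, and Skap1, beside the 3′ end of Hoxb, was 2.73-fold lower.

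Of 12 genes of Cdx and retinoic acid signalling, which set Hox domains in the embryo, 9 were tested, none was called higher in colon and 5 were called lower. Cdx2, the homeobox gene of intestinal identity, averaged 2.28 ± 0.99 in colon and 5.23 ± 0.13 in ileum (SD, n = 4 each), 7.75-fold lower in colon (limma, adjusted p = 0.00805). Aldh1a1 and Aldh1a3, which make retinoic acid, were 5.98-fold and 3.98-fold lower, and Cyp26b1, which degrades it, was 3.59-fold lower. Of 9 Hox cofactors of the Pbx, Meis and Pknox families, Pbx4 was called lower in colon and none higher. None of the 19 Polycomb and Trithorax genes tested was called by limma, with 13 at an unadjusted p under 0.05 and 11 at an adjusted p under 0.05 with a difference under 1 log2. Of other factors known for position, 13 were tested, 2 were called higher and 4 lower in colon.

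The fat depots were compared next, mesenteric fat from the gut's mesentery against brown fat. Of 28 Hox genes tested, 13 were called higher in mesenteric fat and 4 lower, against 21.8% higher and 20.9% lower among all 16017 genes tested (5 higher and 4 lower under normexp). These tissues differ in 42.7% of all genes, so a call is common here. The members' median difference was 0.80 log2 and that of all genes tested −0.11, which the authors' own scaling of the arrays moves up by 0.48 log2. Levels did not overlap for 20 of the 28, against 67.5% of all genes tested, so this count is near the background. Of the 13 called higher, Hoxa10, Hoxa11, Hoxd3 and Hoxd10 were near the lowest measurable signal in mesenteric fat and on no brown fat array well above background. Their bounds were 1.60-fold for Hoxa10, 1.37-fold for Hoxa11 and 1.30-fold for Hoxd10, while the groups overlapped for Hoxd3, and normexp turned the difference of Hoxa10, Hoxa11 and Hoxd10 round.

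Hoxc9 was the clearest difference between the fats. It had levels of −0.43, 0.91, 0.00 and −0.25 in mesenteric fat and −6.67, −6.02, −6.67 and −6.15 in brown fat, where no array was well above background. It was at least 27.8-fold higher in mesenteric fat (limma, adjusted p = 7.67e-11). Its neighbour Hoxc8 had −2.11, −1.28, −1.37 and −2.32 in mesenteric fat and −4.90, −4.83, −4.34 and −3.75 in brown fat, 6.41-fold higher (limma, adjusted p = 3.63e-07). The call of Hoxc8 did not hold under normexp, at 0.83 log2. Further towards the 3′ end of the cluster the order turned, since Hoxc6 and Hoxc4 were not called and Hoxc5 had −0.18, 0.13, −0.04 and −0.61 in mesenteric fat and 1.70, 1.85, 1.78 and 1.55 in brown fat, 3.73-fold lower in mesenteric fat.

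All 4 Hoxb genes of groups 5 to 8 were called higher in mesenteric fat, and Hoxb9 with them. Hoxb5 had levels of 0.30, 0.48, 0.71 and 0.10 in mesenteric fat and −2.09, −1.83, −1.73 and −2.19 in brown fat, 5.14-fold higher (limma, adjusted p = 2.91e-09). Hoxb6 had 0.73, 0.79, 1.04 and 0.72 in mesenteric fat and −1.03, −1.05, −0.77 and −1.27 in brown fat, 3.60-fold higher. Hoxb7 was 4.24-fold, Hoxb8 4.44-fold and Hoxb9 3.12-fold higher, and the call of Hoxb9 did not hold under normexp at 0.30 log2. Hoxb9 was well above background on only 2 brown fat arrays. The 3′ members Hoxb4 and Hoxb2 did not follow. Hoxb4 had 1.63, 1.65, 1.77 and 1.37 in mesenteric fat and 1.25, 1.31, 1.35 and 1.51 in brown fat. Hoxb2 had 0.26, 0.49, 0.65 and −0.04 in mesenteric fat and −0.38, −0.26, −0.23 and −0.10 in brown fat. Neither was called, nor was Hoxb3 by the probe used. A second Hoxb3 probe, well above background on all 4 arrays of both fats, was higher in mesenteric fat by more than 1 log2. Whether Hoxb3 followed is therefore uncertain.

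Brown fat was higher for part of Hoxa. Hoxa4 had levels of −3.46, −3.14, −3.02 and −3.23 in mesenteric fat and −0.39, −0.21, −0.72 and −0.23 in brown fat, 7.06-fold lower in mesenteric fat (limma, adjusted p = 3.34e-10). Hoxa5 had −1.21, −1.01, −0.94 and −1.29 in mesenteric fat and 1.01, 1.20, 0.83 and 1.57 in brown fat, 4.81-fold lower (limma, adjusted p = 2.01e-08). Hoxa9 was called 2.61-fold lower, but a second Hoxa9 probe, well above background on all mesenteric fat arrays and no brown fat array, went the other way at 0.65 log2, so its direction is uncertain. Hoxa3 had 0.25, 0.15, 0.37 and 0.05 in mesenteric fat and 0.98, 1.24, 0.98 and 1.51 in brown fat and was short of a call at −0.97 log2. Hoxa7, with 2.57, 2.61, 2.39 and 2.20 in mesenteric fat and 2.34, 2.67, 2.58 and 3.13 in brown fat, overlapped. Over the 28 genes Spearman's rho between paralog number and the mesenteric minus brown fat difference was 0.52, given as a description over genes of the same arrays.

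**Figure D3:**
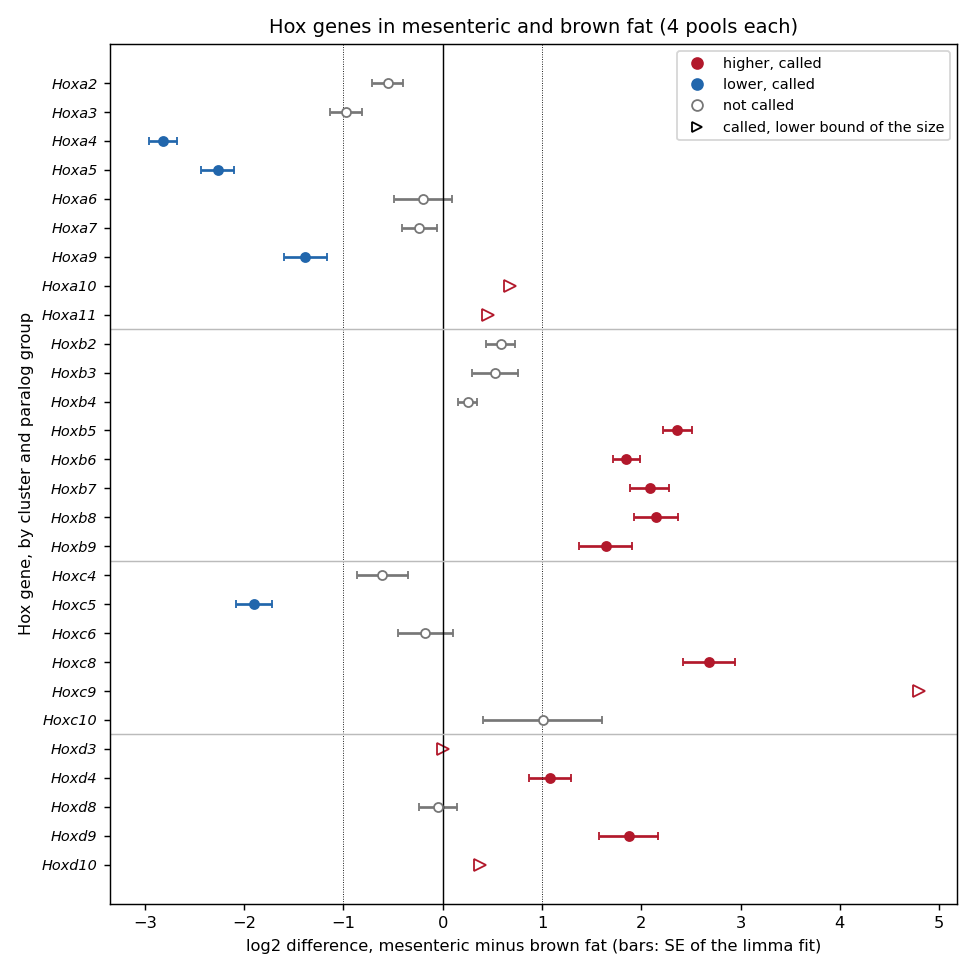
Log2 difference in level, mesenteric minus brown fat, for the 28 tested Hox genes by cluster and paralog group (4 pools a tissue, bars are SE of the limma fit, dotted lines at 1 and −1). Filled points were called, and triangles mark called genes with no array well above background in the dimmer tissue, drawn at the lower bound of the size. Hoxb5 to Hoxb9, Hoxc8 and Hoxc9 lie to the right and Hoxa4, Hoxa5 and Hoxc5 to the left.

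Other tissue carried along differed between the fats, as given above for pancreas, lymphocytes and gut epithelium. Mesothelium markers summed to 9.85, 13.2, 9.94 and 7.59 in mesenteric fat and 0.113 to 0.345 in brown fat, smooth muscle markers to 329.6, 407, 551 and 318 in mesenteric fat and 31.8 to 42.1 in brown fat, and skeletal muscle markers to 4.64 to 8.79 in mesenteric fat and 172, 116, 86.9 and 123 in brown fat. Among the mesenteric fat arrays, gut epithelium markers summed to 17.9, 6.40, 21.0 and 6.23, against 7.59 to 10.7 in brown fat. They and Cdx2 were high with HFD+PP and HFD, Cdx2 being at −2.22, −6.41, −2.82 and −6.0 and well above background on those arrays alone. Of the 5′ genes on in colon, Hoxb13, Hoxd11, Hoxd12 and Hoxd13 were well above background on no mesenteric fat array. Others were, Hoxa10 and Hoxd10 on all 4 mesenteric fat arrays, Hoxa11 on 3 and Hoxa13 on 1. The part of these tissues in the fat differences was not tested. With slide as a block the same number of genes were called. The slides largely follow tissue and the consensus correlation within a slide was −0.14, so this count cannot fully separate slide from tissue. On slide 2, which held the HFD+PP arrays of both fats, the difference was at least 4.40 log2 for Hoxc9, not well above background on that brown fat array. Other differences there were 2.40 log2 for Hoxb5, −3.06 for Hoxa4 and −2.23 for Hoxa5.

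Of the lists, 9 genes of Cdx and retinoic acid signalling were tested between the fats, 5 were called higher in mesenteric fat and 1 lower. Aldh1a2, which makes retinoic acid, was 27.2-fold higher in mesenteric fat, and Rarb, a retinoic acid receptor, was 5.40-fold lower. Of 9 Hox cofactors, Meis1 and Pknox2 were called higher, by 2.62-fold and 4.44-fold, and 1 was called lower. Of 19 Polycomb and Trithorax genes, none was called higher in mesenteric fat and 3 lower, among them Pcgf2 by 2.48-fold and Kdm6b by 2.09-fold. Of 9 neighbours of the clusters tested, Skap1, also an adaptor of T cells, was called higher and Mtx2, which lies beside Hoxd, 6.31-fold lower. Of other factors of position, 7 of 14 tested were called higher in mesenteric fat and 3 lower. Tbx15 and Tbx5, T-box genes known from brown fat and from forelimb and heart, averaged −7.67 ± 0.31 and −6.38 ± 1.31 in mesenteric fat, where Tbx15 was well above background on no array and Tbx5 on 1, against −2.12 ± 0.32 and 0.35 ± 0.13 in brown fat. Wt1, a mesothelium gene, averaged 1.04 ± 0.26 in mesenteric fat and was well above background on no brown fat array.

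Mesenteric fat was also set against the gut segments it hangs beside. Against ileum, 28 genes were tested, 15 were called higher in mesenteric fat and 2 lower, against 21.4% higher and 16.5% lower (37.9% in all) among all 16367 genes tested. Levels did not overlap for 23 of the 28, against 65.0% of all genes tested. The members' median difference was 1.11 log2 and that of all genes tested 0.07. Hoxb9 stood apart in direction, with −2.39, −2.39, −1.97 and −2.75 in mesenteric fat and 2.46, 2.61, 2.60 and 2.48 in ileum, 30.1-fold lower in mesenteric fat (limma, adjusted p = 8.44e-10). Hoxb6 was 2.88-fold lower, while Hoxb2, Hoxb3, Hoxb4, Hoxb5, Hoxb7 and Hoxb8 were not called. All 5 tested Hoxd genes, Hoxd3 to Hoxd10, were called higher in mesenteric fat, Hoxd9 by 9.70-fold and Hoxd8 by 4.93-fold. Hoxc5 was 4.74-fold higher, and Hoxc9 overlapped between the tissues at 0.06 ± 0.60 in mesenteric fat and 0.21 ± 0.14 in ileum (SD, n = 4 each). Under normexp 7 genes were called higher and 2 lower, the calls of Hoxa4, Hoxa9, Hoxa10, Hoxa11, Hoxc8 and Hoxd10 being among those lost. No slide held arrays of both mesenteric fat and ileum, and only the brown fat arrays link their slides. Tissue and slide are therefore poorly separated in this comparison.

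Against colon, 33 genes were tested, 17 were called higher in mesenteric fat and 11 lower, against 19.7% higher and 16.6% lower (36.3% in all) among all 16768 genes tested. Levels did not overlap for 32 of the 33, against 65.6% of all genes tested. The members' median difference was 1.16 log2 and that of all genes tested −0.01. All 7 tested Hoxb genes of groups 2 to 8 were called higher in mesenteric fat, Hoxb8 by 20.7-fold and Hoxb4 by 7.45-fold. Hoxc4 was 21.9-fold and Hoxc5 43.6-fold higher. The size for Hoxc5 is uncertain, since it was well above background on only 2 colon arrays. Hoxc6 had 2.68, 3.11, 3.32 and 2.65 in mesenteric fat and −5.23, −5.52, −5.21 and −4.92 in colon and was 286-fold higher than in colon (limma, adjusted p = 6.80e-12). On the other side Hoxb13 was at least 7825-fold, Hoxd13 at least 401-fold and Hoxa10 20.6-fold lower in mesenteric fat. Colon and slide cannot be told apart in this comparison either. Mesenteric fat arrays enter 3 of these comparisons, so the lists of calls are not independent of each other.

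Liver was the lowest tissue for most of the genes found everywhere. The 7 genes detected in all 5 tissues were Hoxa3, Hoxa5, Hoxa7, Hoxb2, Hoxb4, Hoxb5 and Hoxb6, and each had its lowest mean in liver with the exception of Hoxb4. Hoxa3 had −2.73, −2.69, −2.07 and −2.36 in liver, Hoxa5 −4.98, −4.38, −4.26 and −4.60 and Hoxa7 −3.81, −3.19, −3.42 and −3.01. Hoxb2 had −2.50, −2.33, −2.36 and −2.24 in liver, Hoxb5 −2.61, −2.47, −2.49 and −2.72 and Hoxb6 −3.93, −3.76, −3.81 and −3.61. Hoxb4 had −0.97, −0.94, −0.82 and −0.97 in liver, above its colon values of −1.44, −1.24, −1.30 and −1.19. The liver was not set against another tissue by a test.

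Diet was the variable the study changed. With 1 array per tissue and diet no test within a tissue is possible, and a diet effect shared by the 5 tissues was not tested. A gene counted as changed when either of the arrays compared measured it well above background and its level differed by at least 1 log2 either way. The spread of replicate spots within arrays put the technical SD of a difference between 0.079 and 0.110 log2, which leaves out all variation between mice and pools. Where 1 of the arrays alone measured a gene, the size is a lower bound. The 4 colon arrays shared a slide, as did the 4 ileum and the 4 liver arrays. In mesenteric fat the HFD+PP and HFD+Ex arrays were on another slide than HFD, and in brown fat HFD+Ex was, so diet and slide cannot be told apart in those comparisons. Most Hox levels varied by less than 1 log2 over diets. Among genes detected in a tissue, the median range over its 4 arrays was 0.46 log2 in colon, 0.41 in ileum, 0.61 in mesenteric fat, 0.48 in brown fat and 0.53 in liver.

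Among genes well above background on all 4 arrays of a tissue, the widest ranges were those of Hoxd12, Hoxd10 and Hoxd11 in colon, between 2.26 and 2.29 log2. Hoxa6 in liver followed at 1.70, then Hoxd13 and Hoxd9 in colon at 1.63 and 1.55. Hoxc9, Hoxa10, Hoxc10 and Hoxc8 in mesenteric fat, Hoxa9 in brown fat and Hoxc10 in colon had ranges of 1.04 to 1.34. On the HFD+PP, HFD+Ex, HFD and CD arrays in this order, Hoxd13 had 2.08, 3.49, 3.71 and 2.74, Hoxd12 −1.87, 0.42, 0.41 and −0.47 and Hoxd11 −2.14, −0.13, 0.12 and −1.38. In the same order Hoxd10 had −2.25, −0.34, 0.04 and −1.43 and Hoxd9 −4.12, −3.22, −2.57 and −3.85. Each of the 5 was lowest with HFD+PP and next lowest with CD, and high with HFD and HFD+Ex. Of 31 Hox genes measured in colon with HFD+PP against HFD, these 5 changed, all lower with HFD+PP, against 2.85% of all genes measured in colon. The sizes were 3.10-fold for Hoxd13, 4.83-fold for Hoxd12, 4.78-fold for Hoxd11, 4.88-fold for Hoxd10 and 2.92-fold for Hoxd9. Under normexp Hoxd9 alone of the 5 fell short of the threshold, at −0.70 log2. Hoxd8, at −3.96, −2.96, −3.01 and −3.06, was also lowest with HFD+PP, and its HFD+PP minus HFD difference of −0.95 log2 was just under the threshold.

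With HFD against CD, 3 of 29 Hox genes measured in colon changed, against 2.13% of all genes measured. They were Hoxd9, Hoxd10 and Hoxd11, which were 2.43-fold, 2.76-fold and 2.83-fold higher with HFD. Under normexp Hoxd10 and Hoxd11 still changed, and Hoxd9 fell short of the threshold at 0.56 log2. Hoxd13 at 0.97 log2 and Hoxd12 at 0.88 log2 were just under the threshold. With HFD+Ex against HFD, none of Hoxd8 to Hoxd13 changed, and 2 of 31 Hox genes measured did, against 1.54% of all genes. These were Hoxc10, which was 2.501-fold higher with HFD+Ex, and Hoxc13, at least 3.96-fold higher on the one array where it was well above background. In colon Hoxc10 had −5.19, −4.33, −5.65 and −5.16, and Hoxc13 had −6.66, −4.10, −8.01 and −7.52. All 3 comparisons use the same HFD colon array and are not independent of each other.

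Of the other 5′ genes on the same colon arrays, Hoxb13, Hoxa13 and Hoxa10 varied by less than 1 log2, unlike Hoxc10 and Hoxc13. Hoxb13 had 7.13, 7.46, 7.44 and 7.14, Hoxa13 −2.01, −2.0, −2.04 and −2.01 and Hoxa10 0.24, 0.36, 0.28 and 0.34 in the order given, with no large step at any diet. Within its narrow range Hoxb13 was, like Hoxd9 to Hoxd13, lower with HFD+PP and CD than with HFD+Ex and HFD. Hoxa10 and Hoxa11 were also lowest with HFD+PP, Hoxa11 at −0.17. Hoxa13 was lowest with HFD, and Hoxa9 was highest with HFD+PP, at −1.30. Among the listed regulators, factors of position and gut epithelium markers, those that changed in colon with HFD+PP against HFD were Cdx2, Fabp2, Alpi, Retnlb and Car1, higher with HFD+PP, and Aldh1a3 and Tbx5, lower. Cdx2 had 3.45, 1.70, 1.25 and 2.71 in the same order, highest with HFD+PP and next highest with CD. Fabp2, a fatty acid binder of small intestine, had 5.02, 3.24, 2.66 and 3.67, and Retnlb, a goblet cell product, had 3.0, −0.42, 0.33 and 1.04. Car1, a carbonic anhydrase of colon epithelium, had 5.51, 5.23, 4.47 and 4.76. Tbx5 had −6.12, −3.41, −4.12 and −4.93, the HFD+PP value not well above background, and Aldh1a3 had −1.18, −0.04, −0.11 and −0.28. Cdx2 and Fabp2 were thus highest on the array where Hoxd9 to Hoxd13 were lowest. Smooth muscle markers summed to 667, 1011, 872 and 862 and mesenchyme markers to 130.3, 199, 189 and 171, lowest with HFD+PP, while the gut epithelium markers summed to 1276, 1159, 1206 and 1104.9. The part of these in the Hoxd values was not tested.

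**Figure D4:**
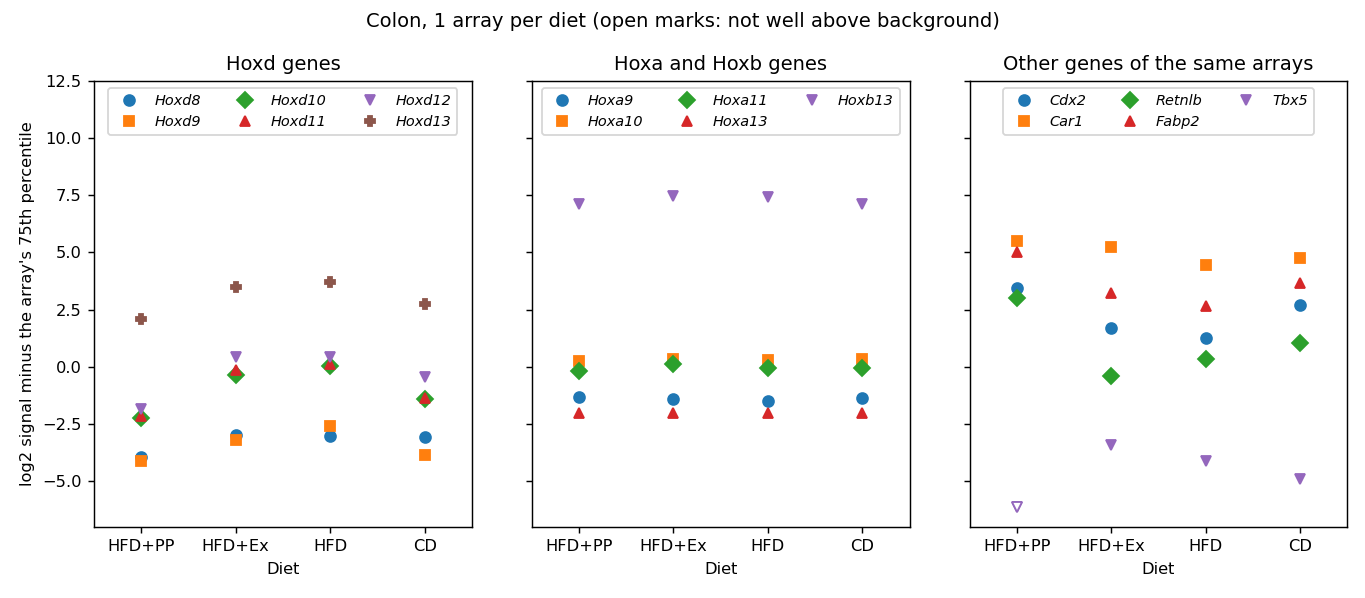
Log2 level on the 4 colon arrays by diet (1 pool of 7 mice each, open marks not well above background) for Hoxd8 to Hoxd13, for 5′ genes of Hoxa and Hoxb, and for Cdx2, Car1, Retnlb, Fabp2 and Tbx5. Hoxd9 to Hoxd13 are lowest with HFD+PP and higher with HFD+Ex and HFD, the Hoxa genes and Hoxb13 vary by less than 1 log2, and Cdx2 runs the other way.

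Outside colon, changes were few and mostly of genes near background. With HFD+PP against HFD, Hoxc10 in brown fat was at least 2.03-fold lower, at −6.77, −4.10, −3.80 and −6.21, 1 of 24 genes measured against 3.60% of all genes, and no Hox gene changed in mesenteric fat, ileum or liver, against 8.38%, 2.86% and 2.13% of all genes. With HFD+Ex against HFD, Hoxa10 and Hoxc10 in mesenteric fat were 2.14-fold and 2.32-fold higher, 2 of 28 against 7.42% of all genes. In mesenteric fat Hoxa10 had −3.98, −3.28, −4.38 and −4.60 and Hoxc10 −4.20, −3.60, −4.81 and −4.24, all near the lowest measurable signal. Hoxa6 was 3.25-fold higher in liver, 1 of 12 against 2.86%, at −3.04 with HFD+Ex and −4.74 with HFD. In ileum Hoxa6 was at least 2.18-fold higher, 1 of 25 against 1.80%, and in brown fat no Hox gene changed, against 4.0%. In ileum Hoxa6 had −4.47, −4.26, −5.39 and −3.84, lowest with HFD. None of the 6 changes with HFD+Ex against HFD held under normexp.

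With HFD against CD, Hoxa6, Hoxa13 and Hoxc10 in ileum were at least 2.94-fold, 3.29-fold and 2.21-fold lower with HFD, 3 of 26 genes measured against 3.82% of all genes, each of them not well above background on the HFD array. Hoxa9 in brown fat was 2.01-fold lower, at −2.66 with HFD and −1.65 with CD, 1 of 23 against 8.47%. Hoxa11 in mesenteric fat was at least 2.89-fold higher, at −3.72 with HFD and not well above background with CD, 1 of 28 against 17.3%. No Hox gene changed in liver, against 4.82%. The mesenteric fat genes Hoxb5 to Hoxb8 and Hoxc4 to Hoxc6, all detected there, moved by less than 1 log2 in every diet comparison.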

How the data were processed

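RNA of 20 pools was measured on one-colour Agilent arrays, scanned with Feature Extraction 11.5.1.1 (protocol GE1_1105_Oct12, grid on mm9), per the file headers. The deposited values are the processed signal intensity of 62976 spots an array, background-subtracted by that software per the file headers. Of these, 3671 control spots and 117 to 206 outlier spots an array were left out. Of 55681 probes, 28026 carried a gene symbol, and each of 21154 genes was read by its brightest probe. Each array was scaled to its 75th percentile on the log2 scale. limma 3.58.1 in R 4.3.3 was fitted to 17386 genes with terms for tissue and diet and 12 residual degrees of freedom. Tests were adjusted by Benjamini-Hochberg over all genes fitted. A simulation gave each gene its mean over the 20 arrays plus random noise of its fitted spread. Of 17386 genes, 200 were shifted in colon. For colon against ileum the fit recovered 87% of shifts of 1.5 log2 and 99% of shifts of 3 log2. No other tissue difference and no background floor were simulated, so these rates do not cover genes near background. Diets were compared by 1 array each with no test.

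Genes were named by a rule. These were the 6 largest called differences between colon and ileum and between the fats, the brightest gene of each tissue, genes detected in all tissues or 1, and genes changed by diet. Other list genes were named only where called, at most 4 per list and comparison. The members, the lists and the marker sets were chosen with earlier results of these data known. The alternatives were normexp with an offset of 50 on the median signal and median background, quantile normalization, the authors' values, no filter, the mean of a gene's probes, no diet term, slide as a block and leaving out 1 diet.

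The authors' deposited table of processed intensity was linear and not centred, with each array multiplied by 1 factor of 0.916 to 1.65 log2 relative to the scanner values, and what the factor was set to is unknown. In the order HFD+PP, HFD+Ex, HFD and CD, its column medians were 86.4, 86.7, 84.6 and 92.6 in colon, 87.1, 91.6, 80.6 and 96.4 in ileum, 102.3, 98.5, 87.9 and 103.6 in mesenteric fat, 67.5, 71.8, 73.6 and 55.2 in brown fat and 54.3, 54.7, 53.5 and 54.8 in liver. Slide 1 held the liver arrays with the HFD and CD mesenteric fat arrays, slide 2 the HFD+PP and HFD+Ex mesenteric fat arrays with the HFD+PP, HFD and CD brown fat arrays, slide 3 the HFD+Ex brown fat array with the ileum arrays, and slide 4 the colon arrays. The number of arrays limits the precision. The values of some genes counted in the lists are not reported here. Promoter windows were taken from RefSeq (GRCm38.p6) with Python 3.11.15.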

Additional observations from a re-analysis of the deposited data

Results flagged for a closer look

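Within the 4 arrays of a tissue, 103 pairs of a Hox gene and a tissue were examined for an array far from the others, and such a gap is expected by chance in about 5% of groups. The gap to the nearest array, divided by the whole range, was past Dixon's limit for 4 values in 2 of them. For Hoxd8 in colon it was 0.904, with the HFD+PP array at −3.96 and the others between −3.06 and −2.96. For Hoxc6 in brown fat it was 0.846, with the CD array at 3.44 and the others between 2.96 and 3.03.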

How the results depend on the processing

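Normexp gave 9 calls, 5 higher and 4 lower, for mesenteric against brown fat, and 9, 7 higher and 2 lower, for mesenteric fat against ileum. It left 2 of the HFD against CD changes, Hoxd10 and Hoxd11 in colon, and 0 of the HFD+Ex against HFD changes. With no filter on dim probes the changes numbered 19 for HFD against CD, 17 for HFD+PP against HFD and 17 for HFD+Ex against HFD, and with both arrays above background 4 for HFD against CD. Without colon, an alternative chosen after seeing the data, 5 changes remained for HFD against CD and 1 for HFD+PP against HFD. In liver 16 genes were well above background on any array. Leaving out 1 diet gave 27 calls each time for colon against ileum, 16 to 19 for mesenteric against brown fat, 15 to 19 for mesenteric fat against ileum and 27 to 29 for mesenteric fat against colon.

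For mesenteric against brown fat the direction turned under normexp for Hoxa10 (−0.14 log2), Hoxa11 (−0.24), Hoxd10 (−0.28) and Hoxc10 (−0.44). There Hoxc6 turned under quantile normalization (0.25), with the authors' values (0.31) and without the CD arrays (0.032, with −0.33 to 0.032 over the arrays left out in turn), Hoxa7 under quantile normalization (0.12) and with the authors' values (0.24), and Hoxa6 with the authors' values (0.28). Hoxc6, Hoxa7, Hoxa6 and Hoxc10 were not called in the main comparison. The call of Hoxa9 was lost with the authors' values (−0.90) and with the mean of its probes (−0.37), and Hoxa3 was called without the HFD arrays (−1.09) or the HFD+PP arrays (−1.05). For colon against ileum Hoxa4 turned without the CD arrays (−0.080 to 0.033 over the arrays left out in turn) and Hoxc10 under normexp (−0.22), neither called. For mesenteric fat against ileum Hoxc9, not called, turned with slide as a block (0.41), and the calls nearest the threshold were lost in part: Hoxc8 without the HFD (0.86) or HFD+Ex arrays (0.97), Hoxa9 without the HFD+PP (0.90) or HFD+Ex arrays (0.89) and Hoxa4 without the HFD arrays (0.99). The causes were not tested.

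Stability was counted over pairs of a gene and an alternative, for part of the tested genes only. Direction and side of the threshold were kept in 258 pairs for colon against ileum and 202 for mesenteric against brown fat. They were kept in 190 pairs for mesenteric fat against ileum and 258 for mesenteric fat against colon. In this order of comparisons, the difference was weaker in 4, 5, 13 and 5 pairs. For colon against ileum these do not hold all the calls lost under normexp. The difference was stronger in 5, 5 and 1 pairs of the last 3 comparisons. For mesenteric against brown fat 6 further pairs were in none of these classes. Direction turned in 2, 10 and 1 pairs of the first 3 comparisons. The authors' scaling moved the all-gene median up by 0.48 log2 for mesenteric against brown fat, by 0.12 for mesenteric fat against ileum and against colon and by 0.28 for HFD against CD in brown fat, and down by −0.10 for HFD against CD in ileum. The labels give no replicate numbers. The tissues pair by diet, which was a term of the fit, and dropping that term changed no count of calls. Levels under about −4 log2 lie near the background, and differences there are the least certain.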
